A study of Mus musculus with 3 samples.

Results

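Vegfa, Vegfb, Prok2, Thbs1, Osm, Hbegf and Areg encode secreted or shed proteins that act on blood vessels or on epithelial and stromal cells, and their transcripts were counted in immune cells sorted from a mouse mammary tumour. The genes were chosen by symbol and are 7 of the 28692 genes in the count matrices, all of them matched. The study profiled single cells of tumours that grew from the cell line 2208L in the mammary gland of mice over 4 weeks and were taken at a diameter of 0.7 to 1 cm. Viable (DAPI-negative) CD45-positive cells were sorted, so leukocytes were selected. There is 1 group of 3 libraries with identical labels, and neither strain, genotype, age nor treatment is given. Whether the libraries came from separate animals is not stated, so the p-values below measure only the spread between these libraries, which may be technical. The labels call the cell type tumour although the cells were gated on CD45. A 5′ platform of the 10x Genomics system is given for the libraries, while the protocol text speaks of a 3′ kit.

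Vascular endothelial growth factor A, the product of Vegfa, binds receptors on endothelial cells and drives the sprouting of new vessels, and its transcription is raised under low oxygen. Vegfb encodes a relative that binds a narrower set of these receptors. Prok2 encodes prokineticin 2 (Bv8), a small secreted protein that acts through the receptors Prokr1 and Prokr2 and is known as a product of neutrophils that promotes tumour angiogenesis in mice. Thbs1 encodes thrombospondin 1, a matrix protein that restrains angiogenesis through Cd36 and Cd47. Hbegf and Areg encode heparin-binding EGF-like growth factor and amphiregulin, which are made as membrane precursors, are cut free by proteases of the ADAM family and activate the EGF receptor. Osm encodes oncostatin M, a cytokine of the interleukin-6 family made mainly by leukocytes, which signals through Osmr with Il6st.

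On GRCm38 each of the 7 genes lies on a chromosome of its own. Thbs1 lies at chr2:118111876-118127133 (plus strand), Areg at chr5:91139599-91148432 (plus strand) and Prok2 at chr6:99711299-99726392 (minus strand). Osm lies at chr11:4236420-4241026 (plus strand), Vegfa at chr17:46016993-46032369 (minus strand) and Vegfb at chr19:6982473-6987651 (minus strand). Of the 7 genes, 4 had a promoter window in RefSeq (GRCm38.p6), and Thbs1, Osm and Hbegf had none there. The windows of Prok2 and Areg are printed because most Prok2 UMIs (90.8%) were in neutrophil-like barcodes, while most Areg UMIs (53.5%) were in T-cell-like ones. Each holds the 250 bases upstream of the annotated start, 5′ to 3′ on the gene's strand, and capitals mark matches to an AP-1 site and an E-box in Prok2 and to a cyclic AMP response element in Areg. The Prok2 window covers chr6:99726393-99726642 (minus strand) and the Areg window chr5:91139349-91139598 (plus strand).
Prok2: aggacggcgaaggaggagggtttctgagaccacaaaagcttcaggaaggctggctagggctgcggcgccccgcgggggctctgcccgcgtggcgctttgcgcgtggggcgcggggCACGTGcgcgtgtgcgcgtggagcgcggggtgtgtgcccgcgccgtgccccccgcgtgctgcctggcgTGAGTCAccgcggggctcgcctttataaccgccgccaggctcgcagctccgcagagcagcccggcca
Areg: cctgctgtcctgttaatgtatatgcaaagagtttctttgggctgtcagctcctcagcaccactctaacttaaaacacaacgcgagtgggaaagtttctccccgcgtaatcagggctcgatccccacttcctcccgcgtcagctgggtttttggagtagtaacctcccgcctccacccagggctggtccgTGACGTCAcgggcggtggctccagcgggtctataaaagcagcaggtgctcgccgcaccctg

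Both strands were searched for 4 motifs: the cyclic AMP response element TGACGTCA, the AP-1 site TGAGTCA, which reads TGACTCA on the other strand, the E-box CACGTG, and the core of the hypoxia response element, spelled ACGTG or else GCGTG. The Prok2 window held 1 AP-1 match that began at -67 from the start, 1 CACGTG match that began at -135 and 8 matches to the hypoxia core, some of which overlapped each other, the CACGTG match or the AP-1 match. The Areg window held 1 TGACGTCA match that began at -61 and none of the other motifs. Of all 32851 promoter windows of this length, 1.55% held TGACGTCA, 4.46% the AP-1 site, 6.02% CACGTG and 38.6% the hypoxia core. Vegfa had windows at 2 starts, of which the first held none of the 4 motifs and the second held 2 matches to the hypoxia core. The Vegfb window held 2 matches to that core. These matches describe letters in the windows and were not tied to the counts.

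The libraries held 9846404, 15259236 and 9445914 UMIs (unique molecular identifiers, each counting 1 captured RNA molecule). Of 14336 barcodes, each standing for a captured cell, 14224 were kept, with a median of 1239, 1549 and 1318 UMIs in libraries 1, 2 and 3. Clusters were named from standard marker genes, without the 7 ligands among the genes used to cluster. This gave 6088 neutrophil-like, 3151 monocyte/macrophage-like, 501 dendritic-cell-like, 211 plasmacytoid-dendritic-cell-like, 3233 T-cell-like, 500 NK-cell-like and 268 epithelial-like barcodes. Neutrophil-like barcodes made up 38.2, 35.7 and 59.2% of libraries 1, 2 and 3. The epithelial-like barcodes, which a CD45 gate would be meant to leave out, also carried fibroblast markers at a summed level of 581 to 1351 CPM, against at most 3.94 CPM in any library of the neutrophil-like or monocyte/macrophage-like classes. Pairs of libraries shared 29, 25 and 37 barcode sequences. Levels below are in CPM, the UMIs of a gene per 1000000 summed UMIs of a class in 1 library, with the mean and SD over 3 libraries.

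By the class with the highest mean level, the name under which the 7 genes were grouped, ligands of myeloid cells, held for some of them. Vegfa, Prok2, Osm and Hbegf had their highest mean level in neutrophil-like barcodes. Areg had its highest mean level in T-cell-like barcodes, and Thbs1 and Vegfb in epithelial-like ones. Neutrophil-like barcodes held 18.3% of all UMIs but 90.8% of the Prok2 UMIs. Their share was 47.4% for Hbegf, 45.4% for Osm and 34.5% for Vegfa. For Vegfb it was 1.68%.

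**Figure D1:**
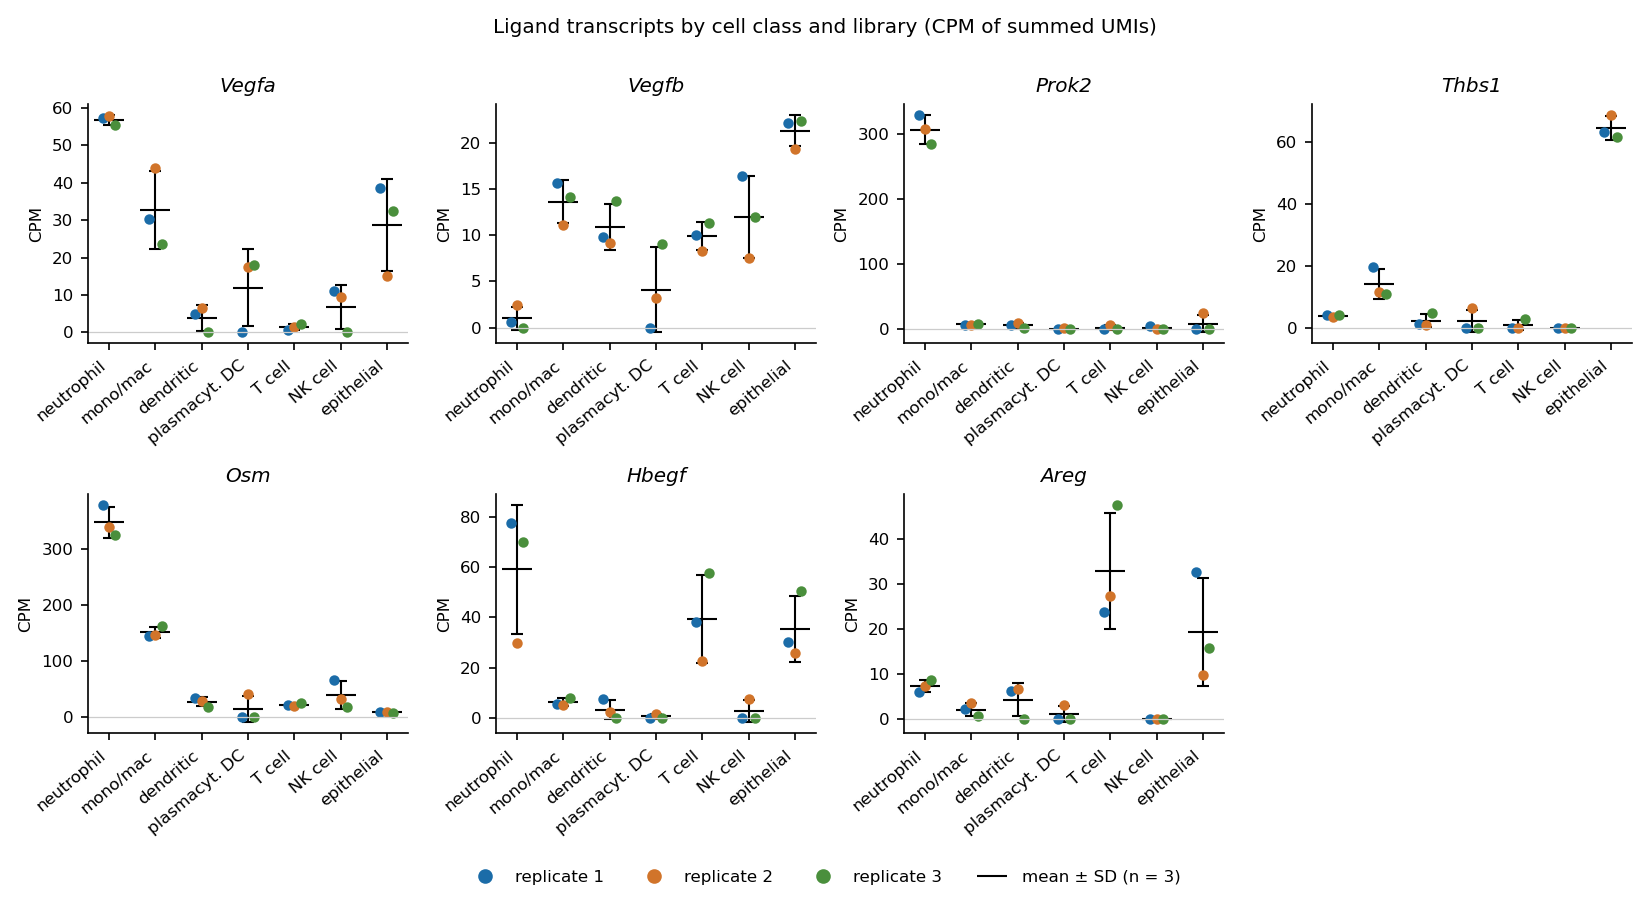
Level of each ligand gene (CPM of summed UMIs, linear axis, 1 panel per gene) in 7 cell classes, with 1 point per library and the mean ± SD over 3 libraries. Prok2 was high in neutrophil-like barcodes alone (284 to 329 CPM), while the highest class was T-cell-like for Areg and epithelial-like for Thbs1 and Vegfb.

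The class contrasts asked whether neutrophil-like barcodes carried more or less of each ligand than 4 other classes of the same libraries, with UMIs summed per library and class and edgeR's quasi-likelihood test over 9444 genes. Against monocyte/macrophage-like barcodes, 7 of 7 ligands differed at an adjusted p under 0.05, where 66.5% of all genes tested did. Of these, 5 were higher (29.6% of all genes) and 2 were lower (36.9% of all genes). Against dendritic-cell-like barcodes 5 of 7 differed, where 57% of all genes did, with 4 higher (27.2% of all genes) and 1 lower (29.8%). Against T-cell-like barcodes 7 of 7 differed, where 64.6% of all genes did, with 5 higher (31.8%) and 2 lower (32.8%). For the contrast with epithelial-like barcodes 7 of 7 differed, where 71.2% of all genes did, with 4 higher (33.9%) and 3 lower (37.3%). Cell classes differ in most of their genes, so the counts of ligands called are read against these shares. The size and direction of each ligand are given instead. The same cells also set the classes, without the ligands among the genes used to cluster. The p-values of the class contrasts do not cover that choice of classes.

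Prok2 was the ligand with the largest share of its UMIs in neutrophils, 90.8%. Its level was 329, 307 and 284 CPM in neutrophil-like barcodes of libraries 1, 2 and 3, against 6.95, 7.03 and 8.73 CPM in monocyte/macrophage-like barcodes. The 3 neutrophil values lay far above all 3 monocyte/macrophage values. The log2 difference was 5.58 ± 0.21 (SE; adjusted p = 2.31e-20, edgeR's quasi-likelihood test with Benjamini-Hochberg adjustment), with neutrophil-like barcodes higher in 3 of 3 libraries. It was 5.56 ± 0.32 over dendritic-cell-like, 6.62 ± 0.29 over T-cell-like and 5.34 ± 0.29 over epithelial-like barcodes (adjusted p by edgeR 6.79e-16, 2.99e-19 and 7.50e-17). Among epithelial-like barcodes library 2 stood apart at 24.7 CPM, and it was at 10.8 CPM without the barcode that held most Prok2. Library 2 was also the highest for T-cell-like barcodes (6.72 CPM), and without it the log2 differences of Prok2 were 8.32 over T-cell-like and 8.25 over epithelial-like barcodes.

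The Prok2 transcripts were concentrated in few cells. Of the 6088 neutrophil-like barcodes, 496 held a Prok2 UMI, at 3.82 UMIs per such barcode and up to 46 in 1 of them, and 302 held 2 or more. After every barcode was thinned at random to 600 UMIs, 6.93 ± 1.29% of neutrophil-like barcodes (SD, n = 3) held a Prok2 UMI, against 0.107 ± 0.095% of T-cell-like barcodes, taken here as the background level. The unthinned shares were 8.18 ± 0.40% and 0.249 ± 0.155%, at median depths of 902 UMIs for neutrophil-like and 1425 UMIs for T-cell-like barcodes. In monocyte/macrophage-like barcodes the low Prok2 level stood in a similar ratio to the S100a9 transcript as in neutrophils. Per 1000 UMIs of S100a9, an abundant neutrophil alarmin, Prok2 had 9.08 to 11.6 UMIs in neutrophil-like barcodes and 7.88 to 14.1 UMIs among the monocyte/macrophage-like ones. The ratio was 13.2 to 31.7 in dendritic-cell-like and 2.44 to 50.7 in epithelial-like barcodes. The neutrophil markers summed to 64609 to 72775 CPM in neutrophil-like and 1602 to 2217 CPM in monocyte/macrophage-like barcodes, and their part in the Prok2 level there was not tested.

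Osm, the interleukin-6 family cytokine, was carried by neutrophils and by monocytes and macrophages. It reached 378, 339 and 324 CPM in neutrophil-like barcodes, against 144, 147 and 161 CPM in monocyte/macrophage-like barcodes of libraries 1, 2 and 3. The ranges did not overlap, and the neutrophil value was the higher in 3 of 3 libraries. This gave a log2 difference of 1.40 ± 0.16 (SE; adjusted p = 2.85e-09, edgeR's quasi-likelihood test with Benjamini-Hochberg adjustment). Osm was also higher in neutrophil-like than in dendritic-cell-like (3.77 ± 0.23), T-cell-like (4.24 ± 0.21) and epithelial-like barcodes (5.69 ± 0.27), in log2 with SE, with adjusted p of 2.15e-15, 4.68e-18 and 2.85e-18 by edgeR. Epithelial-like barcodes had the lowest mean of the 7 classes, 8.21 CPM.

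Osm, unlike Prok2, stood in different ratios to S100a9 in the 2 classes. Neutrophil-like barcodes had 10.4 to 13.4 Osm UMIs per 1000 S100a9 UMIs, and monocyte/macrophage-like barcodes had 164 to 261. Per barcode the order of the classes was the opposite one. Neutrophil-like barcodes held 0.351 ± 0.028 Osm UMIs each, and monocyte/macrophage-like barcodes, with a median of 4278 UMIs, held 0.779 ± 0.218. At 600 UMIs per barcode, 11.2 ± 2.17% of neutrophil-like and 9.16 ± 1.46% of monocyte/macrophage-like barcodes held an Osm UMI (SD, n = 3). Within the monocyte/macrophage-like class Osm was at 243, 200 and 323 CPM in the monocyte-like cluster (1067 barcodes, led by Cd209a, a dendritic-cell marker, with the monocyte markers Ms4a4c, Plac8 and Ccr2 among its 10 leading genes) and at 122, 115 and 121 CPM in the macrophage-like clusters (2084 barcodes), which is given without a test because the same cells set the clusters.

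Among the classes as named, with monocytes and macrophages pooled, Vegfa was highest in neutrophil-like barcodes and nearly constant there between libraries. No separate Vegfa level is given for the monocyte-like cluster, so this order holds for the pooled class only. It was at 57.3, 57.8 and 55.3 CPM in neutrophil-like barcodes, against 30.2, 44.0 and 23.6 CPM in monocyte/macrophage-like and 38.5, 15.03 and 32.5 CPM in epithelial-like barcodes. All neutrophil values lay above those of both other classes, whose own ranges overlapped. Over monocyte/macrophage-like barcodes the log2 difference was 0.99 ± 0.19 (SE; adjusted p = 2.76e-05), and over epithelial-like ones 1.31 ± 0.25 (adjusted p = 3.09e-05), by edgeR's quasi-likelihood test with Benjamini-Hochberg adjustment. Over dendritic-cell-like and T-cell-like barcodes it was 3.73 ± 0.39 and 5.47 ± 0.38 (adjusted p by edgeR 1.03e-09 and 5.10e-14). Monocyte/macrophage-like barcodes still held the larger part of the Vegfa UMIs, 52.1%, and 44.5% of all UMIs. They had 0.162 ± 0.035 Vegfa UMIs per barcode and neutrophil-like barcodes 0.058 ± 0.007. At 600 UMIs per barcode the shares with a Vegfa UMI were 2.81 ± 0.25% for neutrophil-like and 2.26 ± 0.80% for monocyte/macrophage-like barcodes, a difference within the spread between libraries.

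Vegfb, the relative of Vegfa with the narrower receptor range, showed the opposite pattern and was all but missing from neutrophils. Only 6 UMIs were counted in neutrophil-like barcodes (0.659, 2.41 and 0 CPM), against 201 UMIs in monocyte/macrophage-like barcodes (15.6, 11.1 and 14.1 CPM). The ranges did not overlap. Vegfb was lower in neutrophil-like barcodes by a log2 difference of -3.53 ± 0.43 (SE; adjusted p = 1.28e-08, edgeR's quasi-likelihood test with Benjamini-Hochberg adjustment) against monocyte/macrophage-like barcodes. The difference was -3.23 ± 0.57 against dendritic-cell-like, -3.06 ± 0.50 against T-cell-like and -4.07 ± 0.47 against epithelial-like barcodes (adjusted p by edgeR 1.43e-05, 2.63e-06 and 4.20e-09). With so few neutrophil UMIs the size of these differences moved with single libraries: against monocyte/macrophage-like barcodes it was -5.35 without library 2 and -2.67 without library 3. It was -5.01 and -2.31 against dendritic-cell-like, -4.87 and -2.19 against T-cell-like, and -5.81 and -3.28 against epithelial-like barcodes. Epithelial-like barcodes had the highest Vegfb level (22.2, 19.3 and 22.4 CPM). Among monocytes and macrophages, the macrophage-like clusters were at 17.7, 16.3 and 16.9 CPM and the monocyte-like cluster at 6.14, 2.27 and 2.81 CPM.

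Thbs1, the vessel-restraining matrix protein, was low in neutrophils. It was at 3.95, 3.37 and 4.11 CPM in neutrophil-like barcodes, against 19.6, 11.5 and 10.98 CPM in monocyte/macrophage-like and 63.0, 68.7 and 61.6 CPM in epithelial-like barcodes. The 3 classes did not overlap. Thbs1 was lower by a log2 difference of -1.63 ± 0.36 against the monocyte/macrophage class (SE; adjusted p = 0.000208) and -3.73 ± 0.33 against epithelial-like ones (adjusted p = 2.84e-11), by edgeR's quasi-likelihood test with Benjamini-Hochberg adjustment. The epithelial level of library 2 rested on 1 barcode, which held 53 of its UMIs. Without that barcode library 2 was at 12.2 CPM, and with the highest barcode of each class left out the log2 difference was -3.31 (adjusted p by edgeR 3.34e-09).

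Against the other lymphoid and myeloid classes Thbs1 gave less to compare. It was higher in neutrophil-like than in T-cell-like barcodes by a log2 difference of 2.48 ± 0.75 (SE; adjusted p = 0.00492 by edgeR), with 24 UMIs in neutrophil-like and 4 UMIs in T-cell-like barcodes. All 4 were in library 3, and the fitted difference was 1.76 without library 2 and, with T-cell-like barcodes then at 0, 5.89 without library 3. Against dendritic-cell-like barcodes, which also held 4 UMIs, the difference was 1.34 ± 0.82 (adjusted p = 0.170 by edgeR). Within the monocyte/macrophage-like class it was at 49.1, 23.5 and 33.7 CPM in the monocyte-like cluster and at 13.2, 4.47 and 5.28 CPM in the macrophage-like clusters. The 5 platelet markers summed to 2 UMIs in the monocyte-like cluster, with Gp9, Gp1ba and Tubb1 at 0, and the part of platelets in its Thbs1 level was not tested. The fibroblast markers named above were high in the same class as Thbs1, the epithelial-like one, and their part in its level was not tested.

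Hbegf, the heparin-binding ligand of the EGF receptor, was carried by neutrophils, T cells and epithelial cells and was low in monocytes and macrophages. The gene lies at chr18:36504927-36515805 (minus strand). It was at 77.7, 29.9 and 69.9 CPM in neutrophil-like barcodes, against 5.65, 4.92 and 7.88 CPM in monocyte/macrophage-like barcodes. Library 2 was the lowest of the neutrophil values and still lay above all monocyte/macrophage values. Hbegf differed by a log2 of 3.36 ± 0.22 (SE; adjusted p = 1.80e-14, edgeR's quasi-likelihood test with Benjamini-Hochberg adjustment), and over dendritic-cell-like barcodes it was 3.93 ± 0.40 (adjusted p by edgeR 4.42e-10; 4.62 without library 1). T-cell-like barcodes were at 38.1, 22.5 and 57.5 CPM and epithelial-like barcodes at 30.3, 25.8 and 50.4 CPM, with library 2 again the lowest. The neutrophil range overlapped both, and the neutrophil value was the higher in 3 of 3 libraries. These differences were 0.77 ± 0.20 over T-cell-like (adjusted p = 0.00108) and 1.00 ± 0.23 over epithelial-like barcodes (adjusted p = 0.000286) by edgeR. Neither passed with DESeq2, at adjusted p of 0.074 and 0.054, and the difference over T-cell-like barcodes was 0.28 under the stricter barcode filter (adjusted p by edgeR 0.266).

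Areg, the amphiregulin gene, was low in neutrophils and had its highest mean in T cells, whose range overlapped that of epithelial-like barcodes. It was at 5.93, 7.22 and 8.59 CPM in neutrophil-like barcodes, against 23.7, 27.3 and 47.6 CPM in T-cell-like barcodes. The ranges did not overlap, and the log2 difference was -1.91 ± 0.35 (SE; adjusted p = 2.00e-05, edgeR's quasi-likelihood test with Benjamini-Hochberg adjustment). Monocyte/macrophage-like barcodes were lower still (2.17, 3.51 and 0.563 CPM), with a log2 difference of 1.78 ± 0.47 in favour of neutrophils (adjusted p by edgeR 0.00134; 2.46 without library 2). Epithelial-like barcodes were at 32.7, 9.66 and 15.7 CPM, and neutrophil-like barcodes lay below them by a log2 difference of -1.05 ± 0.44 (adjusted p by edgeR 0.0326). That call rested on library 1, where 1 epithelial-like barcode held 15 Areg UMIs and the level was 15.4 CPM without it. Without library 1 the difference was -0.30 (adjusted p by edgeR 0.642). Against dendritic-cell-like barcodes the difference was 0.59 ± 0.62 (adjusted p by edgeR 0.434).

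**Figure D2:**
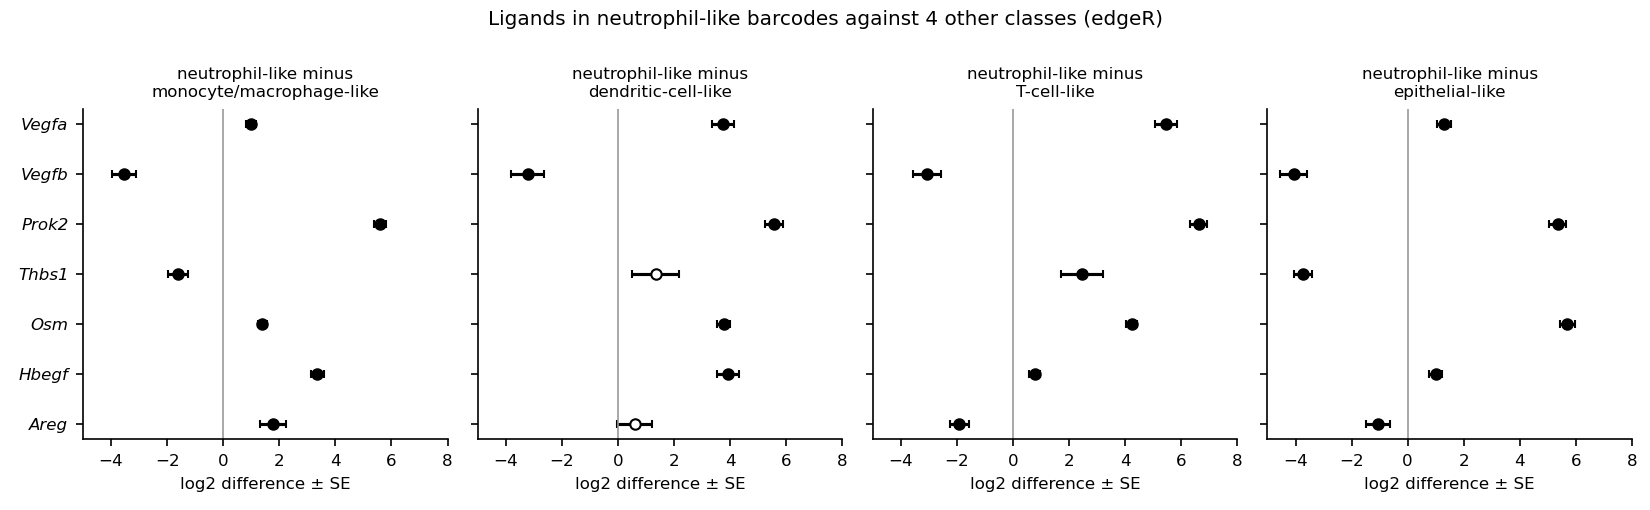
Log2 difference (± SE, edgeR) of each ligand gene in neutrophil-like barcodes minus 4 other classes; filled points have an adjusted p under 0.05. Vegfa, Prok2, Osm and Hbegf lay above 0 in all 4 panels and Vegfb below 0 in all 4, while Areg and Thbs1 changed side with the class compared.

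The T-cell signal of Areg and Hbegf came mainly from some of the T-cell-like clusters, described here without a test. The cluster led by Il17a, Trdc and Tcrg-C1 (849 barcodes), genes of interleukin-17-making gamma-delta T cells, had Hbegf at 89.8, 129 and 124 CPM. That cluster held 181 of the 199 Hbegf UMIs of T-cell-like barcodes. Areg was at 44.0, 69.6 and 73.2 CPM there. The cluster led by Tnfrsf4 and Tnfrsf18, which are known from regulatory and activated T cells, had Areg at 49.0, 54.9 and 9.99 CPM, so library 3 stood apart. After every barcode was thinned to 600 UMIs, 4.98 ± 0.99% of the Il17a-led cluster held an Hbegf UMI and 2.89 ± 1.54% an Areg UMI (SD, n = 3). A split of T-cell-like barcodes by single genes was chosen after the values were seen. Hbegf was at 81.4, 187 and 148 CPM in the 378 barcodes with Trdc detected and at 0, 2.14 and 6.72 CPM in the 442 with Cd8a detected. Areg was at 24.4, 60.5 and 9.68 CPM in the barcodes with Trdc and at 0, 14.95 and 0 CPM in those with Cd8a, so the Trdc range overlapped that of the whole T-cell-like class. In the 22 barcodes with Foxp3 detected Areg had 11 UMIs, all in library 2.

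Neutrophil-like barcodes formed several clusters in which the ligands were spread unevenly, and these levels are descriptions. The cluster led by Cxcl3 and Hcar2, with Prok2 as the third leading gene (1836 barcodes), had Vegfa at 101, 120 and 116 CPM and Prok2 at 613, 773 and 663 CPM. Osm was at 519, 414 and 401 CPM there. The cluster led by Retnlg, Wfdc21 and Ngp (873 barcodes), genes of freshly released blood neutrophils, had the highest Osm of all clusters, 1158, 723 and 985 CPM. Vegfa was at 24.8, 18.4 and 10.3 CPM in it. The cluster led by Siglecf (1755 barcodes) held 3 Prok2 UMIs in all, and its Osm was at 33.7, 40.8 and 21.5 CPM. Its Hbegf, at 67.4, 16.8 and 60.3 CPM, overlapped that of the Cxcl3-led cluster (103, 40.5 and 98.2 CPM).

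A cluster of 98 barcodes matched no marker set and was led by Gbe1, Adm and Hspa1a. Its Vegfa was at 138, 362 and 180 CPM, from 18 UMIs in all. These were the highest Vegfa values of any cluster in libraries 1, 2 and 3, which held 41, 15 and 42 of its barcodes. At this depth 3 UMIs amount to 83.05, 217 and 67.5 CPM within these libraries, and to 31.8 CPM over the whole cluster. Its neutrophil markers summed to 12318 to 17301 CPM, with Ly6g at 0, against 64609 to 72775 CPM in neutrophil-like barcodes.

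**Figure D3:**
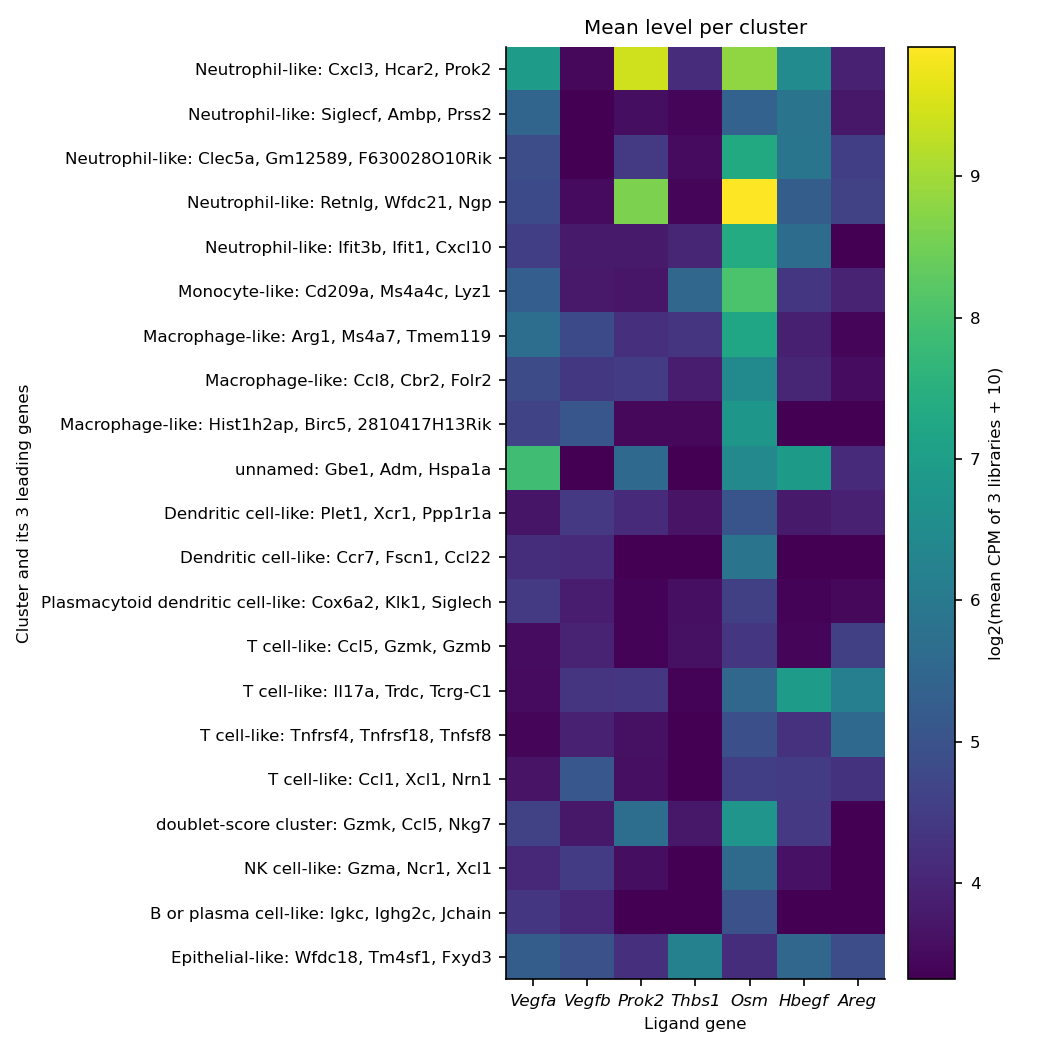
Mean level of each ligand gene, as log2 of the mean CPM over 3 libraries plus 10, in 21 clusters labelled with their class and their 3 leading genes. Prok2 and Osm were brightest in the Cxcl3-led and Retnlg-led neutrophil clusters, Vegfa in the unnamed Gbe1-led cluster, Thbs1 in the epithelial-like cluster, and Hbegf and Areg among T cells in the Il17a-led cluster.

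The state contrasts asked how the ligands differed between neutrophils that carry Siglecf, Cxcl3 or Retnlg. A neutrophil-like barcode was put in a state when, thinned to 600 UMIs, it held at least 1 UMI of exactly 1 of these 3 genes. This gave 417 Siglecf-state, 347 Cxcl3-state and 343 Retnlg-state barcodes, while 764 were shallower than 600 UMIs, 4145 held none of the genes and 72 held 2 or 3. Siglecf marks long-resident tumour neutrophils in mice, Cxcl3 encodes a chemokine that attracts neutrophils, and Retnlg is expressed in blood neutrophils. Only Vegfa, Prok2 and Osm passed the filter on low counts, 3 of the 7 ligands, among 2385 genes tested. The remaining 4 ligands did not enter this test. In all 3 states the neutrophil markers were present, at summed levels of 36685 to 50611 CPM in Siglecf-state, 54857 to 74249 CPM in Cxcl3-state and 179430 to 200210 CPM in Retnlg-state barcodes. The 5 eosinophil markers were all at 0 in Siglecf-state barcodes, as were the 6 markers of mast cells and basophils.

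Prok2 was almost missing from Siglecf-state neutrophils. It had 0, 0 and 4.32 CPM there (1 UMI), against 520, 708 and 520 CPM in Cxcl3-state and 1239, 844 and 858 CPM in Retnlg-state barcodes. The 3 states did not overlap. Prok2 in Siglecf-state barcodes was 397-fold lower than in Retnlg-state barcodes (95% interval 70.8 to 15703, counting error only) and 229-fold lower than in Cxcl3-state barcodes (40.7 to 9077). In Cxcl3-state against Retnlg-state barcodes the log2 difference was -1.08 ± 0.18 (SE; adjusted p = 8.85e-06, edgeR's quasi-likelihood test with Benjamini-Hochberg adjustment), with Cxcl3-state lower in 3 of 3 libraries. Prok2 and Osm were the 2 of 3 tested ligands called in that contrast, where 19.4% of all genes were called, and both were lower (12.2% of all genes were lower and 7.21% higher). In Siglecf-state against Retnlg-state barcodes 2 of 3 were called, where 57.4% of all genes were, and both were lower (30.7% lower and 26.7% higher among all genes). In Siglecf-state against Cxcl3-state barcodes 3 of 3 were called, where 55.2% of all genes were, all of them lower (27% lower and 28.1% higher among all genes).

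The order of Cxcl3-state and Retnlg-state neutrophils in Prok2 turned round when states were set by subcluster, each subcluster standing for the state gene that led it. Prok2 was then at 618, 827 and 719 CPM in the Cxcl3 subcluster (1609 barcodes), against 450, 186 and 176 CPM in the Retnlg subcluster (1673 barcodes). The log2 difference was 1.91, given without a p-value because the same cells set the subclusters. The 2 splits do not hold the same cells. Of the Retnlg-state barcodes set by 1 UMI, 37.0% were in the Cxcl3-led cluster and 61.2% in the Retnlg-led cluster, while 87.0% of the Cxcl3-state barcodes were in the Cxcl3-led cluster. Within the Cxcl3-led cluster, Prok2 was at 587, 759 and 560 CPM in Cxcl3-state and at 1339, 979 and 1086 CPM in Retnlg-state barcodes. In both splits the Siglecf group had the least Prok2, with 2 UMIs among the 2282 barcodes of its subcluster.

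Osm was lowest in Siglecf-state and highest in Retnlg-state neutrophils. It was at 0, 91.5 and 64.7 CPM in Siglecf-state, 756, 797 and 546 CPM in Cxcl3-state and 1035, 1275 and 1262 CPM in Retnlg-state barcodes. The states did not overlap in any pair. The log2 difference was -5.05 ± 0.27 for Siglecf-state minus Retnlg-state (SE; adjusted p = 3.42e-19), -3.98 ± 0.29 for Siglecf-state minus Cxcl3-state (adjusted p = 8.46e-15) and -1.07 ± 0.19 for Cxcl3-state minus Retnlg-state (adjusted p = 2.62e-05), by edgeR's quasi-likelihood test with Benjamini-Hochberg adjustment. With states set by subcluster the last of these was -0.24 and no longer passed, from 498, 415 and 413 CPM in the Cxcl3 subcluster and 773, 512 and 653 CPM in the Retnlg subcluster. In the Retnlg-led cluster, Retnlg-state barcodes had Osm at 1617, 1500 and 1818 CPM, while in the Cxcl3-led cluster they had 603, 772 and 543 CPM, close to the Cxcl3-state barcodes there (783, 740 and 583 CPM).

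Vegfa had a different order, with Cxcl3-state neutrophils highest. It was at 37.9, 27.4 and 30.2 CPM in Siglecf-state, 93.1, 106 and 86.7 CPM in Cxcl3-state and 44.2, 17.0 and 33.2 CPM in Retnlg-state barcodes. The Cxcl3-state values lay above all others, and those of Siglecf-state and Retnlg-state overlapped. The log2 difference was -1.94 ± 0.47 for Siglecf-state minus Cxcl3-state (SE; adjusted p = 0.000673, edgeR's quasi-likelihood test with Benjamini-Hochberg adjustment). For Cxcl3-state minus Retnlg-state it was 1.26 ± 0.47 and missed the threshold (adjusted p by edgeR 0.0551), while it passed without the library block (1.34, adjusted p 0.0259) and with library totals (1.55, adjusted p 0.013). With subclusters it was 2.84, a description because the same cells set the subclusters. For Siglecf-state minus Retnlg-state it was -0.68 ± 0.58 (adjusted p by edgeR 0.318), and its sign turned to 0.15 when sums were scaled by library totals. These state values rest on 13, 40 and 14 Vegfa UMIs in Siglecf-state, Cxcl3-state and Retnlg-state barcodes.

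Hbegf was counted too rarely for the filter in the state contrasts. It was at 25.3, 0 and 34.5 CPM in Siglecf-state, 120, 53.1 and 173 CPM in Cxcl3-state and 44.2, 17.0 and 0 CPM in Retnlg-state barcodes. The Cxcl3-state values lay above the other 2 states in every library. With no filter on low counts, the log2 difference of Hbegf for Cxcl3-state minus Retnlg-state was 2.38 ± 0.51 (SE; adjusted p = 0.000196, edgeR's quasi-likelihood test). That value lies outside the filtered test, in a setting where 389 genes were called. It rests on 59 Hbegf UMIs in Cxcl3-state and 8 in Retnlg-state barcodes, and a single Cxcl3-state barcode held 7. Vegfb, Thbs1 and Areg had at most 6 UMIs in any state, and no order was read from them.

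**Figure D4:**
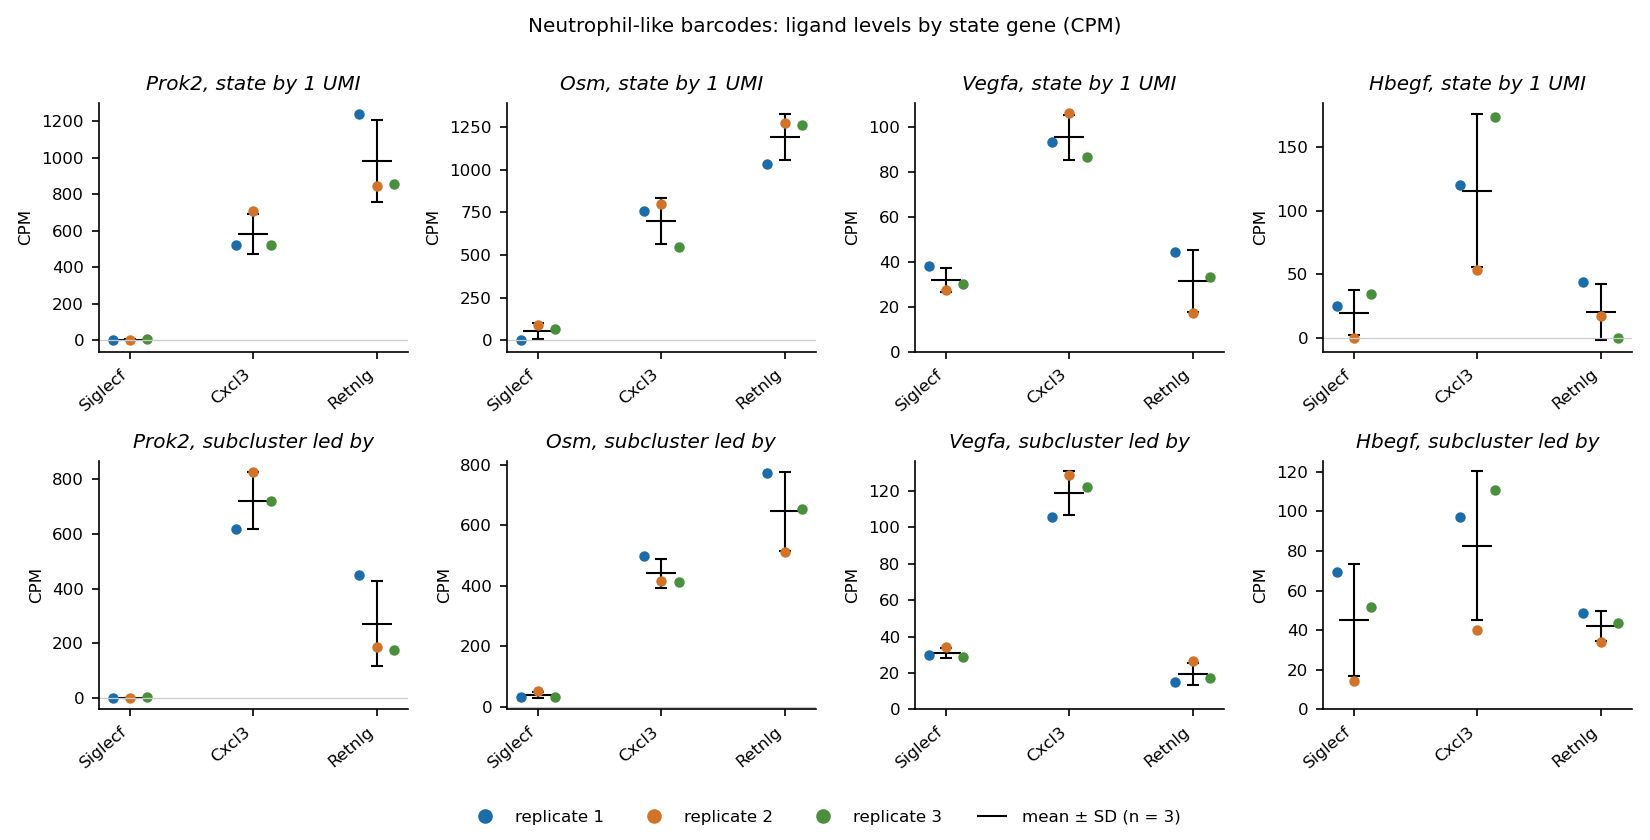
Levels (CPM of summed UMIs) of Prok2, Osm, Vegfa and Hbegf in neutrophil-like barcodes by Siglecf, Cxcl3 and Retnlg, with 1 point per library and the mean ± SD over 3 libraries; states are set by 1 UMI of the gene in the top row and by the subcluster it leads in the bottom row. Siglecf neutrophils had the least Prok2 and Osm in both rows, Cxcl3 neutrophils the most Vegfa in both, and Prok2 changed its order between Cxcl3 and Retnlg from row to row.

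**Figure D5:**
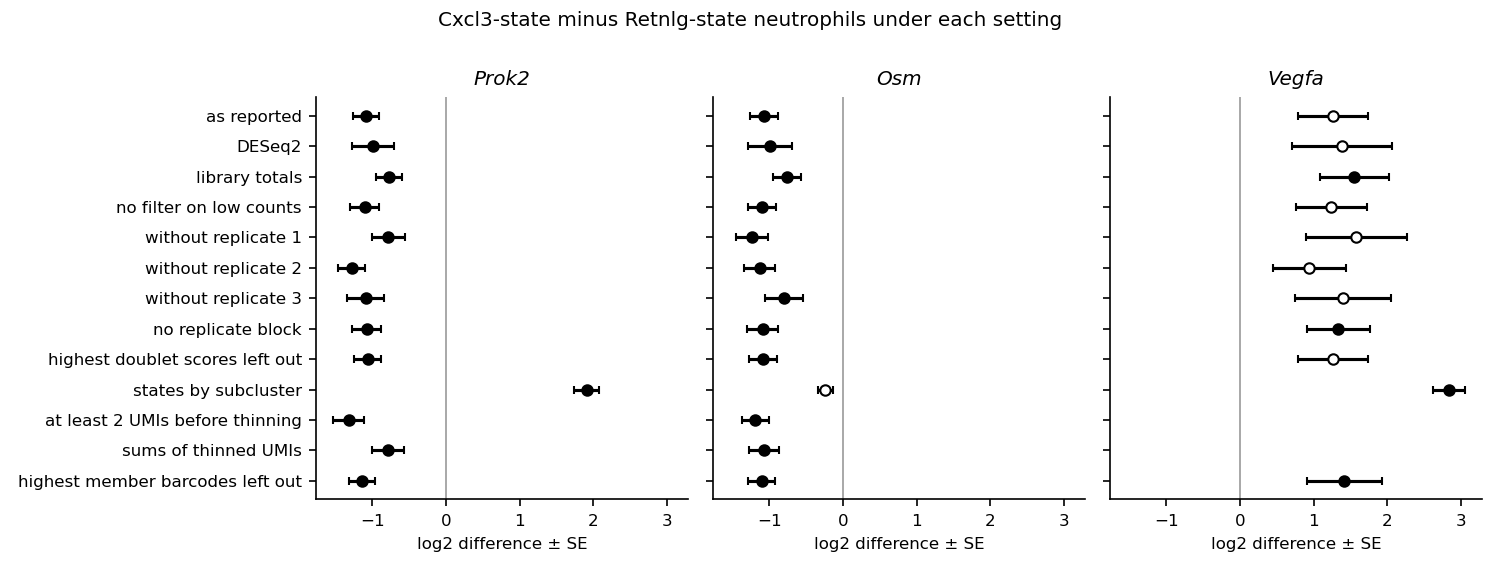
Log2 difference (± SE) of Prok2, Osm and Vegfa for Cxcl3-state minus Retnlg-state neutrophils under each setting, where filled points have an adjusted p under 0.05 and a missing point means the gene was not tested. Prok2 moved to 1.91 only with states by subcluster, and Osm lay below 0 and Vegfa above 0 in every setting shown. The same cells set the subclusters, so that setting is a description.

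Counts above depended in part on how sums were scaled. Scaling by library totals moved the median of all genes by 0.29 (log2) for Cxcl3-state minus Retnlg-state, 0.83 for Siglecf-state minus Retnlg-state and 0.55 for Siglecf-state minus Cxcl3-state. The class contrasts moved by between -0.32 and -0.12. Of all genes, 172 were higher and 290 lower for Cxcl3-state minus Retnlg-state with the scaling used, and 437 higher and 187 lower with library totals. For Siglecf-state minus Retnlg-state these counts were 636 and 732 against 1265 and 337, and for Siglecf-state minus Cxcl3-state 671 and 645 against 1073 and 424. Among the ligands, only the sign of Vegfa for Siglecf-state minus Retnlg-state turned.

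Ligands were seldom seen together in 1 cell at this depth. Among 5324 neutrophil-like barcodes thinned to 600 UMIs, 78 held both Prok2 and Osm, where 38.9 would if the genes were independent. Vegfa and Prok2 met in 19, where 9.95 would, and Vegfa and Osm in 21, where 16.1 would. Hbegf met Osm in 18, where 14.9 would, Prok2 in 8, where 9.21 would, and Vegfa in 1, where 3.81 would. Within the Cxcl3 subcluster the counts were 47 against 44.7 for Prok2 with Osm and 17 against 17.0 for Vegfa with Prok2. Within the Retnlg subcluster, 30 barcodes held both Prok2 and Osm, against 12.9, and none held both Vegfa and Prok2, against 0.997.

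The partners of these ligands were counted from lists of related genes. Of 10 receptors for VEGF, prokineticins and thrombospondin, 5 were tested in neutrophil-like minus monocyte/macrophage-like, and 1 was higher and 4 were lower, with a median log2 difference of -1.25 where all genes had -0.15. Among all genes of this contrast 29.6% were higher and 36.9% lower, 66.5% in all, and the list counts for it are to be read against these shares. Nrp1, a co-receptor for VEGF, was at 1.32, 1.93 and 0 CPM in neutrophil-like and 115, 89.5 and 105 CPM in monocyte/macrophage-like barcodes, and its relative Nrp2 was also lower (-3.10 ± 0.30, adjusted p by edgeR 8.67e-11). For Nrp1 the log2 difference was -6.45 ± 0.40 (adjusted p by edgeR 3.40e-15; -7.41 without library 2 and -5.66 without library 3). The signalling receptor Kdr had 4 UMIs in neutrophil-like and 98 UMIs in monocyte/macrophage-like barcodes. Of the receptors of prokineticin 2, Prokr1 had 5 UMIs in the monocyte/macrophage-like class and none in neutrophil-like barcodes, and Prokr2 had none in either.

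Of 14 other angiogenic factors, 8 were tested in the same contrast, with 3 higher and 4 lower in neutrophil-like barcodes (29.6% and 36.9% of all genes) and a median of -0.22. Adm, the vasodilator adrenomedullin, was higher (88.9, 34.7 and 52.3 CPM in neutrophil-like, 8.47, 3.51 and 3.10 CPM in monocyte/macrophage-like barcodes; log2 3.66 ± 0.21, adjusted p by edgeR 5.30e-15). Mmp9, a matrix protease that frees VEGF, was higher by 4.43 ± 0.15 (adjusted p by edgeR 4.03e-21), but it is among the markers that named the neutrophil clusters. Platelet-derived growth factors went the other way. Pdgfb had 5 UMIs in neutrophil-like barcodes against 322 in the monocyte/macrophage-like class (-4.49 ± 0.44, adjusted p by edgeR 1.69e-10; -5.40 without library 1 and -3.51 without library 3), and Pdgfa had 1 and 564 UMIs. Of 11 inhibitors of angiogenesis, 9 were tested, with 1 higher and 5 lower and a median of -2.13. The 6 of 9 called is near the 66.5% of all genes. Pf4, an anti-angiogenic chemokine, was at 4.61, 1.44 and 2.24 CPM in neutrophil-like and 191, 138 and 172 CPM in monocyte/macrophage-like barcodes (-5.77 ± 0.31, adjusted p by edgeR 5.66e-16), and Serpinf1 had 1 and 105 UMIs.

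All 6 genes of the proteases that release Hbegf and Areg and their regulators were tested in neutrophil-like minus monocyte/macrophage-like. Of these 1 was higher and 3 were lower, with a median of -0.50, a share called near the 66.5% of all genes. Adam17 (-0.25 ± 0.14, adjusted p by edgeR 0.113) and Rhbdf2 (0.32 ± 0.18, 0.108) were not called. Adam8 was higher (0.88 ± 0.18, adjusted p by edgeR 6.83e-05), while Adam9 was lower (-1.98 ± 0.22, 2.90e-09), as was Adam10 (-0.74 ± 0.17, 0.000315). Rhbdf1, a regulator of Adam17, had 2 UMIs in neutrophil-like barcodes against 34 in the monocyte/macrophage-like class, a call that was lost without library 2 (adjusted p 0.131) or library 3 (adjusted p 0.108). Of 12 other genes of the EGF family and its receptors, only 4 were tested, with 1 higher and 1 lower (29.6% and 36.9% of all genes) and a median of -0.35, and both calls rested on 3 or fewer UMIs in neutrophil-like barcodes. Of 13 genes of the interleukin-6 family, 8 were tested, with 3 higher and 4 lower (29.6% and 36.9% of all genes) and a median of -1.03. Lifr, the receptor of leukaemia inhibitory factor, was lower (-4.60 ± 0.35, adjusted p by edgeR 5.62e-13; -5.42 without library 2 and -3.97 without library 3), and so was Il11ra1, the interleukin-11 receptor (-3.20 ± 0.36, 4.02e-09).

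Receptor genes were also compared between neutrophil-like and epithelial-like barcodes. Osmr, the receptor of oncostatin M, had 2 UMIs in neutrophil-like and 139 UMIs in epithelial-like barcodes (44.4, 55.8 and 54.8 CPM), a ratio of 163-fold (95% interval 44.2 to 1355, counting error only) in favour of epithelial-like ones. Its signalling partner Il6st was lower in neutrophil-like barcodes by -3.35 ± 0.44 (adjusted p by edgeR 4.29e-08). Erbb3 had 2 UMIs in neutrophil-like and 147 in epithelial-like barcodes (172-fold, 46.7 to 1433), and Erbb2 had 3 and 51 (39.8-fold, 12.9 to 199). Both encode receptors of the EGF family other than the one that Hbegf and Areg activate. Egfr itself, which binds Hbegf and Areg, had 5 UMIs in epithelial-like barcodes and none in neutrophil-like ones. Tgfa, another EGF receptor ligand, had no UMI in neutrophil-like and 42 in epithelial-like barcodes, at least 32.7-fold higher in epithelial-like ones with 3 UMIs as the floor over the class. The counts of this contrast were 1 higher and 3 lower of 4 EGF family genes tested (median -5.86), and 2 higher and 5 lower of 8 interleukin-6 family genes (median -2.44, where all genes had -0.07). Of all genes 33.9% were higher and 37.3% lower in it, 71.2% in all.

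Few of the listed genes could be tested between neutrophil states. Of 3 other angiogenic factors tested in Siglecf-state minus Cxcl3-state, 2 were lower and 1 was higher, where 27% of all genes were lower and 28.1% higher. Hif1a encodes an oxygen-regulated factor that acts on Vegfa. Its transcript was at 88.5, 110 and 160 CPM in Siglecf-state and 203, 177 and 245 CPM in Cxcl3-state barcodes. In Retnlg-state barcodes it was at 310, 232 and 255 CPM. The log2 difference of Hif1a was -1.18 ± 0.28 for Siglecf-state minus Cxcl3-state (adjusted p by edgeR 0.000440), -1.79 ± 0.26 for Siglecf-state minus Retnlg-state (2.37e-07) and -0.61 ± 0.24 for Cxcl3-state minus Retnlg-state (0.0709). Its part in the Vegfa levels was not tested. Adm had 4 UMIs in Siglecf-state, 42 in Cxcl3-state and 30 in Retnlg-state barcodes (Siglecf-state minus Cxcl3-state -3.29 ± 0.64, adjusted p by edgeR 3.68e-05; -3.88 without library 1). Mmp9 was higher in Siglecf-state than in Cxcl3-state barcodes by 0.83 ± 0.23 (adjusted p by edgeR 0.00231), a call that was lost without library 3 (adjusted p 0.0927). For Siglecf-state minus Retnlg-state the Mmp9 difference was -0.0053 ± 0.21 (adjusted p by edgeR 0.984). Socs3, a feedback inhibitor induced by oncostatin M and other cytokines, was at 607, 704 and 751 CPM in Siglecf-state, 411, 372 and 510 CPM in Cxcl3-state and 814, 822 and 769 CPM in Retnlg-state barcodes. The log2 difference of Socs3 was -1.13 ± 0.18 for Cxcl3-state minus Retnlg-state (adjusted p by edgeR 4.40e-06), -0.95 ± 0.17 for Siglecf-state minus Retnlg-state (7.45e-06) and 0.19 ± 0.18 for Siglecf-state minus Cxcl3-state (0.398). The Siglecf-state minus Retnlg-state call was lost with library totals (-0.11, adjusted p 0.584) and under the stricter barcode filter (-0.43, adjusted p 0.110). Siglecf-state barcodes had more Socs3 CPM than Cxcl3-state ones in 3 of 3 libraries, a difference that did not pass the test. Whether Osm bore on the Socs3 level was not tested.

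The genes with the pattern most like each ligand were taken over 27 points, the 3 neutrophil states and 6 other classes in 3 libraries, by Pearson correlation of log2(CPM + 10) among 4443 genes. Points of 1 library share its depth and preparation, so the coefficients are descriptions. Prok2 was closest to Stfa2 (0.96), Mmp8 (0.95) and Sgms2 (0.94), and Osm to Nfkbiz (0.93), Dusp1 (0.92) and F10 (0.91). Vegfa was closest to Cstb, Bri3 and P4hb (0.90 each), and Vegfb to Kcnq1ot1, Bin1 and Tusc3 (0.89 each). Thbs1 was closest to Cp (0.94), Gja1 (0.94) and Ctnnd1 (0.94). Hbegf reached 0.77 with Rab15, 0.71 with Ifrd1 and 0.70 with Inhba, and Areg only 0.62 with Pttg1, 0.60 with Blk and 0.58 with Actn2.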

How the data were processed

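What the authors deposited are raw UMI counts, whole numbers with no normalisation, with a list of genes and a list of barcodes for each library. Per the submitters' processing notes, the authors used Cell Ranger, Seurat and the mm10 build, with versions not given in the sources used here. A software version, 3.0.0, stands in the matrix headers with no name beside it. Every deposited barcode had at least 500 UMIs. Which of the 5′ and 3′ chemistries was used was not settled.

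The filters removed barcodes that had fewer than 200 genes (22) or in which mitochondrial UMIs exceeded 10% (107). Some barcodes failed both filters and are in both counts. Scrublet called 2 doublets (0.01406%), so the caller had not worked, and these 2 were left out. For clustering, log values of counts per 10000 were used, 2000 variable genes less the ligands and listed partner genes (1985 left) gave 30 principal components, and 15 neighbours and Leiden clustering at resolution 1 gave the clusters. A cluster took the name of the marker set with the highest mean fold among sets with 3 or more markers that were detected in 10% of its barcodes and exceeded the remaining clusters 2-fold (10 CPM added to both). No name was given to 97 barcodes of a cluster whose doublet scores had a median over 0.15, a limit set after seeing the data, and a B-or-plasma-cell-like class of 77 barcodes had under 20 in a library and was not tested. A second Leiden round on the neutrophil-like barcodes used resolution 0.5, and 30 of them formed a subcluster led by T-cell genes.

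Sums of UMIs over each class or state of a library entered edgeR's quasi-likelihood test (TMM scaling, filterByExpr, Benjamini-Hochberg adjustment at 0.05), with library as a block since both sums come from the same library. Classes were fitted jointly. The state genes were left out of the calls. On simulated counts for neutrophil-like minus monocyte/macrophage-like (7849 genes), 91 of 99 genes changed by a log2 of 1 were recovered, and for Cxcl3-state minus Retnlg-state (1830 genes) 45 of 89. Unchanged genes called were 6 and 8. The simulation changed only well-expressed genes, with 1 fixed spread and no difference between libraries. Most ligands lay below that level of expression, so these recovery shares do not hold for them. Intervals are exact at 95% and, like the floor of 3 UMIs, cover counting error only. The members, gene lists, tests and markers were chosen with earlier results of these data known. Named were the 7 ligands, the 3 genes most like each, and up to 4 called genes a list with the largest difference; receptors outside that rule (Kdr, Prokr1, Prokr2, Egfr) were chosen after their values were seen. Promoters come from RefSeq (GRCm38.p6).

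Alternatives were DESeq2, library totals, no low-count filter, each library left out, no block, a stricter barcode filter (500 genes, 5% mitochondrial UMIs), the 560 highest doublet scores left out, resolution 0.5, classes by marker UMIs, states by subcluster or by at least 2 UMIs, sums of thinned UMIs and thinning to 900 UMIs. Leaving out the barcode with most UMIs of a ligand in each class or state (46 and 18 barcodes) was added after seeing the data. Tools were Python 3.11.15, scanpy 1.11.5, anndata 0.12.19, matplotlib 3.10.9, pandas 2.3.3, igraph 0.11.9, scipy 1.17.1, numpy 2.4.6, scikit-learn 1.9.0, R 4.3.3, edgeR 4.0.16, limma 3.58.1 and DESeq2 1.42.0.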

Additional observations from a re-analysis of the deposited data

How the results depend on the processing

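Over 439 repeats of the ligands' tests under the alternatives, 421 kept direction and side of the threshold, 9 no longer passed, 6 newly passed and 3 turned sign. The reversals were Prok2 for Cxcl3-state minus Retnlg-state (1.91, states by subcluster) and Vegfa for Siglecf-state minus Retnlg-state (0.15 with library totals and 0.052 by subcluster, neither called). Of 704 repeats for the partner genes, 659 kept both, 41 no longer passed and 4 turned sign: Erbb3 (0.43, neutrophil-like minus monocyte/macrophage-like) and Nrp1 (3.55, neutrophil-like minus epithelial-like) with classes by marker UMIs, Cxcl10 (0.058, Cxcl3-state minus Retnlg-state) with at least 2 UMIs, and Cd47 (0.20, Siglecf-state minus Retnlg-state) with library totals. Calls lost were Vegfb against dendritic-cell-like by marker UMIs (-0.98), Hbegf against T-cell-like (0.81 with DESeq2, 0.28 with the stricter filter) and epithelial-like (0.88 with DESeq2), Areg against epithelial-like (-1.17 with DESeq2, -0.73 by marker UMIs, -0.83 without the top barcodes and -0.30 without replicate 1), and Osm for Cxcl3-state minus Retnlg-state by subcluster (-0.24). Calls gained were Areg against dendritic-cell-like (7.32 by marker UMIs, 1.86 without the top barcodes) and Vegfa for Cxcl3-state minus Retnlg-state (1.55 with library totals, 1.34 with no replicate block, 2.84 by subcluster, 1.42 without the top barcodes). The same cells set the subclusters, so calls and counts by subcluster are descriptions. Without the replicate block the counts of genes called were 6115, 5309, 5977 and 6658 for the class contrasts with monocyte/macrophage-like, dendritic-cell-like, T-cell-like and epithelial-like barcodes, and apart from Vegfa no ligand's call changed. The state counts moved more. For Cxcl3-state minus Retnlg-state 462 genes were called, against 217 with DESeq2, 2009 by subcluster, 302 with thinned sums and 205 to 433 with a library left out. For Siglecf-state minus Retnlg-state 1368 were called, against 643 with the stricter filter, 2888 by subcluster, 757 with thinned sums and 813 to 1317 with a library left out. For Siglecf-state minus Cxcl3-state 1316 were called, against 851 with DESeq2, 3567 by subcluster, 858 with at least 2 UMIs, 723 with thinned sums and 739 to 1296 with a library left out. With a library left out, the lowest count came without library 3 each time. At 900 UMIs the share of neutrophil-like barcodes with a UMI was 4.75% for Vegfa, 10.7% for Prok2, 0.356% for Thbs1, 18% for Osm, 3.97% for Hbegf and 0.416% for Areg. The causes of these moves were not tested. Thinning and the stricter filter left a smaller number of UMIs. The stricter filter left too few Cxcl3-state barcodes to compare that state. Depth limits Vegfb, Thbs1 and Areg in neutrophil states to at most 6 UMIs each, and Vegfa to 40.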
